A study of Mus musculus with 30 samples.

Results

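The 9 genes described here mark the primitive endoderm or carry its inducing signal: the transcription factor genes *Gata6*, *Gata4*, *Sox17* and *Sox7*, the receptor gene *Pdgfra*, the adaptor gene *Dab2*, the ligand gene *Fgf4* and the receptor genes *Fgfr1* and *Fgfr2*. They were chosen by name from the 55487 genes counted in each library, with the binding peaks of the homeodomain factor POU6F1 that lay within 5 kb of each gene. All 23 embryos came from matings of *Dis3*+/- mice with each other, carried 2, 1 or 0 intact copies of *Dis3* (wild-type, het or null) and were genotyped from the genomic DNA left after RNA capture. *Dis3* encodes a ribonuclease of the RNA exosome, and its null allele lacks exons 3 to 5. The embryos of embryonic day 2.5 (E2.5) comprised 6 wild-type, 2 het and 4 null, and those of E2.75 comprised 3 wild-type, 5 het and 3 null. Each embryo was 1 polyA RNA-seq library with added ERCC spike-in RNAs, so replicates are separate embryos, and strain and sex were not given in the labels. The peaks came from mouse embryonic stem cells derived from *Dis3* flox/flox blastocysts and transfected with *Pou6f1-mCherry*, whose chromatin was precipitated with an antibody against mCherry 48 h later, in 2 replicates.

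The primitive endoderm is the epithelium that lines the blastocyst cavity and later forms the yolk sac lining. In the mouse, GATA6 is present in most cells of the morula before it becomes restricted, and FGF4 made by epiblast precursors signals through FGFR1 and FGFR2 and the ERK kinase cascade to keep it on. PDGFRA, SOX17, GATA4, SOX7 and DAB2 then appear in turn, so that at the morula ages sampled here the later members of the series are ordinarily low or silent.

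Library totals on genes ranged from 1690192 to 14015980 counts, with a median of 8030848. The smallest were 2 E2.75 null embryos, with 1690192 and 1914128 counts, and the third E2.75 null embryo had 7051002. The share of reads that fell wholly or partly outside exons was 41.1% to 43.9% in the E2.75 null libraries, 23.5% to 33.4% in E2.75 wild-type and 23.1% to 27.9% in E2.75 het libraries. It was 32.3% to 39.5% in E2.5 null libraries against 21% to 25.1% in E2.5 wild-type libraries. The targeted gene *Dis3* ranged from 0 to 21.4 CPM (counts scaled to a common library size) in the 7 null embryos and from 18.0 to 146 in the 16 others, and E2.5 wild-type replicate 6, at 18.0, lay within the null range. Summed CPM of 12 cumulus and granulosa cell markers was 0 to 27.0 per embryo. Of these, 8 were detected in at least 1 embryo, and *Ptx3*, *Inha*, *Inhba* and *Cyp11a1* were at 0 throughout. The summed CPM of 6 sperm markers was 0 to 3.64, with 4 of the 6 detected. *Pou5f1*, a gene of all early embryonic cells, was at 265 to 1568 CPM in every embryo, and *Cdx2*, which marks the trophectoderm, was detected in 20 of 23. These libraries hold whole embryos, so fewer cells of a type and less RNA per cell cannot be told apart.

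*Gata6* was the most abundant of the 9 genes. Divided by the length of its annotated exons, its level was 38.9 ± 18.7 CPM per kb (SD, n = 23), and it exceeded *Fgf4*, the next gene in the order, in 22 of 23 embryos. *Fgf4* followed at 7.34 ± 7.05 CPM per kb, *Gata4* at 6.0 ± 4.75, *Dab2* at 5.37 ± 3.32, *Fgfr2* at 4.75 ± 2.10 and *Fgfr1* at 3.99 ± 1.83. Neighbours among these 5 did not differ beyond their spread: *Fgf4* was above *Gata4* in 15 embryos, *Gata4* above *Dab2* in 12, *Dab2* above *Fgfr2* in 15 and *Fgfr2* above *Fgfr1* in 15. *Pdgfra* was lower, at 0.648 ± 0.982 CPM per kb, and lay below *Fgfr1* in all 23 embryos. *Sox7* and *Sox17* stood at the end of the order with 1 count each. Reads were counted without regard to strand, and a read lying in exons of more than 1 gene went to an ambiguous class, 1.89% to 2.73% of reads per library. *Gata6*, *Sox17*, *Pdgfra*, *Dab2* and *Fgfr1* overlap the annotated transcripts *1010001N08Rik*, *Gm37587*, *Gm42802*, *Gm16311* and *Gm16159*, respectively, so reads from any exons they share are missing from these levels.

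**Figure D1:**
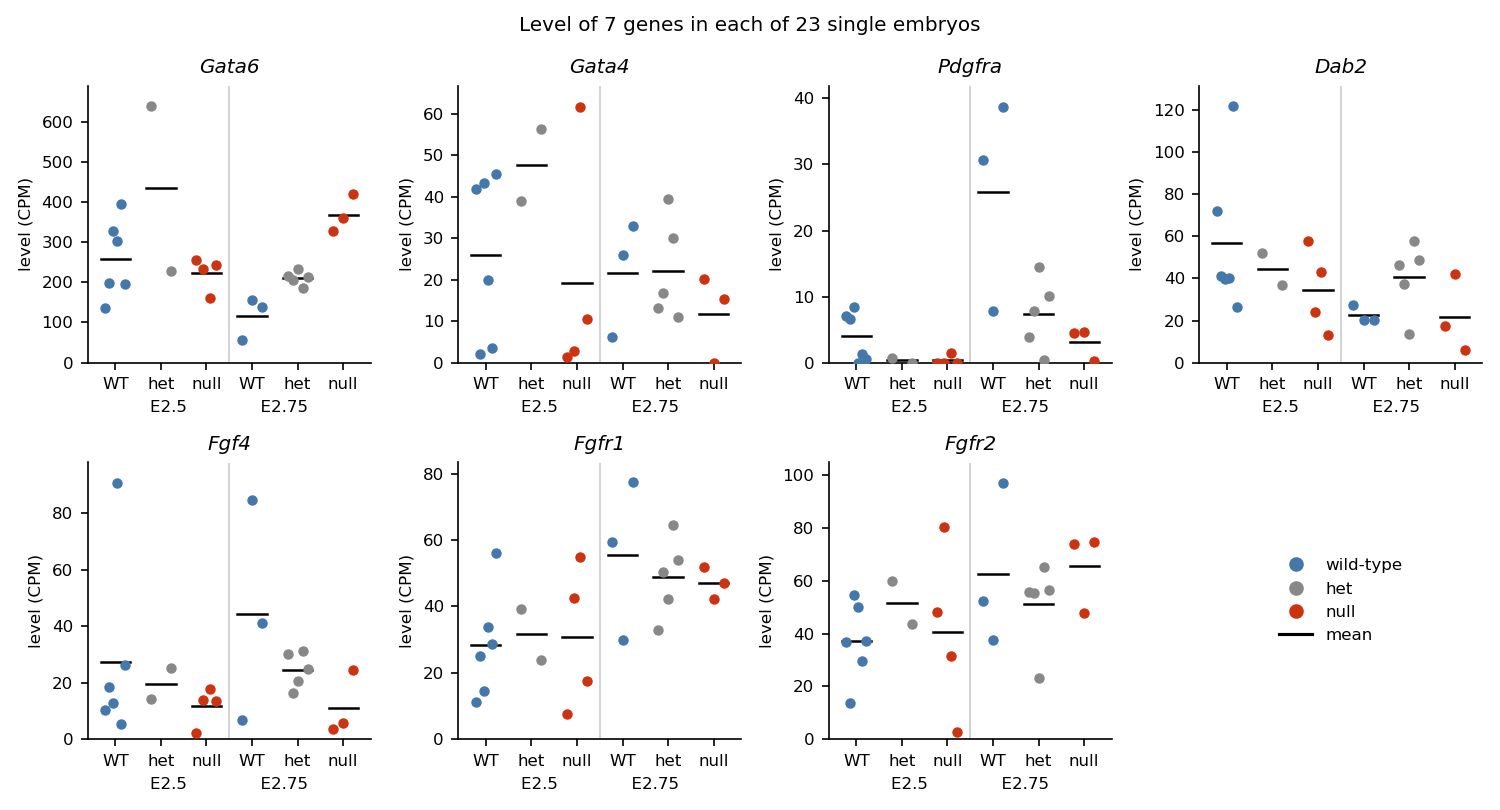
Levels of the 7 genes that were counted in more than 1 embryo, in CPM after TMM normalization on a linear axis of its own for each gene, for each embryo (points) by genotype and stage, with the group means as lines. *Gata6* lies above 50 CPM in every embryo, and its 3 E2.75 null embryos, at 327 to 420 CPM, lie above the 3 E2.75 wild-type embryos, at 55.1 to 157 CPM.

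*Gata6* (ENSMUSG00000005836, chromosome 18, 11052510 to 11085636 on the plus strand, GRCm38) encodes the GATA factor that starts the primitive endoderm programme. In the 6 E2.5 wild-type embryos its level ran from 135 to 395 CPM with a median of 251. It was 640 and 229 in the 2 het embryos and 256, 233, 160 and 243 in the 4 null embryos of that stage, so the genotypes overlapped at E2.5. At E2.75 the wild-type embryos had 55.1, 157 and 139 CPM, the het embryos 215, 205, 232, 186 and 214, and the null embryos 327, 360 and 420. Every null embryo of E2.75 lay above every wild-type embryo of that stage, as for 12.5% of all genes tested, and above every het embryo, as for 7.7%. All het embryos of E2.75 lay above all wild-type embryos, but the share of genes with that order was not counted, so nothing is concluded from it.

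At E2.75, *Gata6* was 3.16-fold higher in null than in wild-type embryos by group means (369 ± 47.1 CPM, n = 3, against 117 ± 54.2, n = 3). The log2 fold change was 1.6 (SE 0.32, 95% interval 0.92 to 2.29), with an adjusted p of 0.0229 (edgeR quasi-likelihood test, Benjamini-Hochberg adjustment over 14442 genes). A gene was called when its adjusted p was under 0.1 and its log2 fold change was beyond 1 in size. *Gata6* was the only one of the 7 members tested that was called in this comparison, where 4.54% of all genes tested were called and 2.19% were called higher. Every null embryo lay above every wild-type embryo for 12.5% of all genes tested, *Gata6* among them. It stayed called when any 1 of the 11 E2.75 embryos was left out (log2 fold change 1.25 to 1.86, adjusted p 0.0224 to 0.0775, edgeR), and it was not called when the 2 shallow null embryos were both left out (1.77, adjusted p = 0.114, edgeR), where the 1 null embryo left was assumed to vary like the others. With library scaling by the ERCC spike-ins it was also not called (1.17, adjusted p = 0.129, edgeR). That scaling moved the median of all genes to -0.40, and *Gata6* stood 1.57 above that median, against 1.61 above it with TMM scaling. A change of scaling shifts the genes of a library together, so these distances had to be near each other and do not bear on the lost call. The higher share of reads wholly or partly outside exons in the null libraries moved with genotype in the same embryos, and its part in the difference was not tested.

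**Figure D2:**
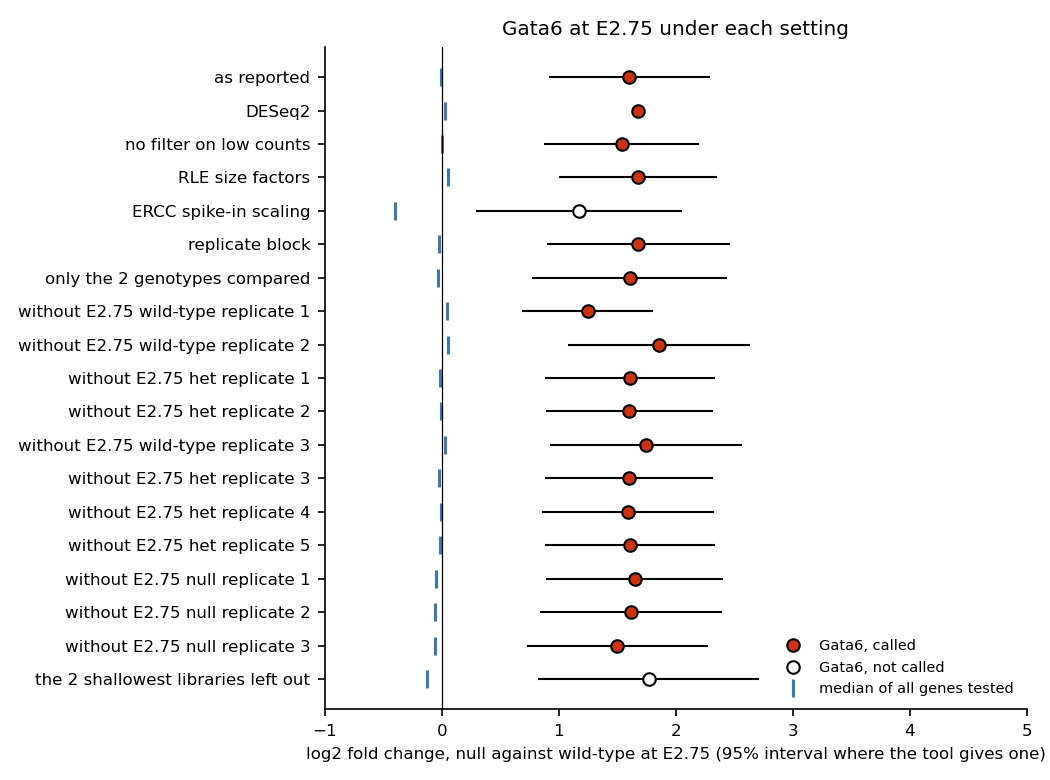
Log2 fold change of *Gata6* between E2.75 null and E2.75 wild-type embryos (points) with its 95% interval where the tool gives one (lines) and the median of all genes tested (short blue lines), under each way of processing and with each embryo left out. The estimates lie between 1.17 and 1.86, all above 0, and the spike-in scaling and the fit without the 2 shallowest libraries are those that were not called.

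Against het embryos at E2.75, *Gata6* was 1.75-fold higher in null embryos by group means, a log2 fold change of 0.78 (SE 0.28, 95% interval 0.19 to 1.36, edgeR adjusted p = 0.156). It was not called, and 4.82% of all genes tested were. Under spike-in scaling it was 0.09 (edgeR adjusted p = 0.902), where the median of all genes was -0.74. All 3 null embryos lay above all 5 het embryos, as they did for 7.7% of genes. At E2.5 the log2 fold change of null against het was -1.04 (SE 0.43, edgeR adjusted p = 0.520), where 0.0126% of genes were called and 1 of the 2 het embryos stood at 640 CPM. Without that embryo, E2.5 het replicate 1, it was -0.054, and without the other het embryo it was -1.63. Against wild-type at E2.5 it was -0.24 (edgeR adjusted p = 0.824). With the stages combined, *Gata6* averaged 286 ± 88.0 CPM in null (n = 7), 274 ± 162 in het (n = 7) and 212 ± 109 in wild-type embryos (n = 9). The log2 fold changes were 0.06 against het (95% interval -0.63 to 0.75, edgeR adjusted p = 0.955) and 0.43 against wild-type (-0.22 to 1.08, 0.595). The sign of the former turned under several ways of processing and its size stayed near 0, except under spike-in scaling (-0.96).

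From E2.5 to E2.75, *Gata6* fell in wild-type embryos from 259 ± 98.1 CPM (n = 6) to 117 ± 54.2 (n = 3), a log2 fold change of -1.15 (SE 0.35, 95% interval -1.87 to -0.42, edgeR adjusted p = 0.0611). It was the only member called in this comparison, where 7.38% of 18677 genes were called and 3.64% were called lower, and the 2 stages overlapped between 135 and 157 CPM. The call was lost without E2.5 wild-type replicate 5 (-0.98, edgeR adjusted p = 0.123), without E2.75 wild-type replicate 1 (-0.81, 0.282), without E2.75 wild-type replicate 3 (-1.28, 0.117) and without the 2 shallowest libraries (-1.10, 0.102). Under spike-in scaling the change was -0.20 (edgeR adjusted p = 0.840), while the median of all genes moved to 0.89. In null embryos the change between the stages was 0.71 on the log2 scale and was not called, where 3% of genes were called. All 3 E2.75 null embryos nevertheless lay above all 4 E2.5 null embryos, as they did for 6.04% of genes. The difference between the 2 genotypes in their change with stage, tested as an interaction, was 1.86 for *Gata6* (edgeR adjusted p = 0.289). Of the 18677 genes that passed the filter on low counts, 0 were called for this interaction by edgeR, with 2045 at an unadjusted p under 0.05. With no such filter edgeR called 126 genes higher and 95 lower, and DESeq2 called 220 higher and 124 lower, with *Gata6* among those called higher in each (1.84, edgeR adjusted p = 0.0390, and 1.87, DESeq2 adjusted p = 0.0305).

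*Gata4* (ENSMUSG00000021944, chromosome 14, 63198914 to 63271712, minus strand), a related GATA factor that acts later in the primitive endoderm, varied widely between embryos of the same genotype and stage. In E2.5 wild-type embryos it ran from 2.02 to 45.4 CPM with a median of 30.8, and the het embryos had 38.9 and 56.2. The 4 null embryos of that stage had 1.34, 2.87, 61.6 and 10.5 CPM. At E2.75 it was 6.09, 26 and 32.9 in wild-type, 13.2, 16.8, 39.5, 30.0 and 11 in het and 20.1, 0 and 15.3 in null embryos. The genotypes overlapped at both stages. Its mean was lowest in null embryos (16 ± 21.5 CPM, n = 7, against 29.4 ± 16.7 in het and 24.6 ± 17.6 in wild-type), and neither log2 fold change passed the test (null against het -0.88, 95% interval -2.46 to 0.69, edgeR adjusted p = 0.609, and null against wild-type -0.63, 0.782). Both moved to -1.83 (edgeR adjusted p = 0.216) and -1.57 (0.285) without E2.5 null replicate 3, the embryo at 61.6 CPM, and the values nearest 0 with 1 embryo left out were -0.65 and -0.41, without E2.5 het replicate 2 and E2.75 null replicate 2.

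*Sox17* (ENSMUSG00000025902) and *Sox7* (ENSMUSG00000063060) encode SOX factors that act downstream of GATA6 in the forming endoderm. Each had 1 count in the whole experiment, *Sox17* in E2.75 wild-type replicate 2 (0.111 CPM) and *Sox7* in E2.75 wild-type replicate 1 (0.265 CPM). Neither was detected once every library was thinned to 1690192 counts, and neither passed the filter on low counts in any fit. A difference between genotypes was not detectable for either gene from 1 count.

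*Pdgfra* (ENSMUSG00000029231, chromosome 5, 75151322 to 75198206, plus strand) encodes the alpha receptor for platelet-derived growth factor, an early surface marker of primitive endoderm precursors. It was low in E2.5 embryos, from 0 to 8.42 CPM in wild-type with a median of 3.99, and 0.734 and 0 in the het embryos. Of the 4 E2.5 null embryos, 3 had no count and the other had 1.52 CPM, from 5 counts. At E2.75 the wild-type embryos had 30.7, 7.87 and 38.7 CPM, the het embryos 3.86, 7.80, 14.4, 0.353 and 10.1, and the null embryos 4.41, 4.59 and 0.275. Every E2.75 null embryo lay below every E2.75 wild-type embryo, as for 10.6% of all genes tested, while null and het embryos overlapped.

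The counts behind the E2.75 null values of *Pdgfra* were 9, 9 and 2, the last of them in the deepest of the 3 libraries. On the log2 scale, null against wild-type at E2.75 was -3.17 (SE 1.18, 95% interval -5.68 to -0.66, edgeR adjusted p = 0.166). With the stages combined it was -2.98 (SE 1.29, -5.63 to -0.32, edgeR adjusted p = 0.254), from means of 1.54 ± 2.09 CPM in null and 11.3 ± 13.8 in wild-type embryos. Neither passed the threshold, although *Pdgfra* was called at E2.75 by DESeq2 (-3.09) and by edgeR without a filter on low counts (-3.27), and in the combined stages when stage was a covariate (-3.45, edgeR adjusted p = 0.0804). Null against het, with the stages combined, was -1.90 (95% interval -4.54 to 0.73, edgeR adjusted p = 0.482). With stage as a covariate it was -1.03 (edgeR adjusted p = 0.727), as the 2 genotypes held different shares of E2.75 embryos. Between E2.5 and E2.75 in wild-type, *Pdgfra* differed by 2.68 on the log2 scale (edgeR adjusted p = 0.248). The gene was detected in 18 of 23 embryos, and in 16 after thinning.

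*Dab2* (ENSMUSG00000022150, chromosome 15, 6299788 to 6440715, plus strand) encodes an endocytic adaptor that helps to sort the endoderm to the surface. Its level was 26.6 to 122 CPM in E2.5 wild-type embryos with a median of 40.8, 52.1 and 36.7 in het and 57.6, 23.8, 43.1 and 13.3 in null embryos. At E2.75 it was 27.5, 20.4 and 20.5 in wild-type, 46.4, 37.2, 13.6, 57.7 and 48.8 in het and 17.2, 42.4 and 6.06 in null embryos. The genotypes overlapped at each stage. Log2 fold changes of null against het (-0.52, SE 0.45) and null against wild-type (-0.65) with the stages combined had edgeR adjusted p values of 0.607 and 0.533, and that of wild-type E2.75 against E2.5 was -1.33 (edgeR adjusted p = 0.201). With 1 embryo left out the first ran from -0.85 to -0.35 and the second from -0.97 to -0.35, lowest without E2.5 null replicate 1 in both.

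*Fgf4* (ENSMUSG00000050917, chromosome 7, 144861386 to 144865245, plus strand) encodes the FGF ligand of the inner cell mass. In E2.5 wild-type embryos it ran from 5.42 to 90.7 CPM with a median of 15.6. It was 14.2 and 25.1 in the het embryos and 2.07, 13.9, 17.6 and 13.6 in the null embryos of that stage. At E2.75 it was 6.89, 84.8 and 40.9 in wild-type, 30.0, 16.2, 20.7, 31.2 and 25.0 in het and 3.43, 5.61 and 24.4 in null embryos. The lowest E2.75 values were those of the 2 shallow null libraries, from 7 and 11 counts, and the null embryo with 7051002 counts lay within the het range.

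The mean of *Fgf4* with the stages combined was 11.5 ± 8.18 CPM in null, 23.2 ± 6.51 in het and 32.9 ± 33.0 in wild-type embryos. Null against wild-type was -1.51 on the log2 scale (SE 0.57, 95% interval -2.68 to -0.33, edgeR adjusted p = 0.170), and null against het was -1.0 (SE 0.59, -2.21 to 0.21, 0.402). The former was not called here and was called by DESeq2 (-1.49), without a filter on low counts (-1.61), under spike-in scaling (-2.17) and without E2.5 wild-type replicate 5 (-1.70, edgeR adjusted p = 0.0963). At E2.75, null against wild-type was -2.0 (SE 0.79, -3.67 to -0.33, edgeR adjusted p = 0.187), and it was called by DESeq2 (-1.96) and without a filter (-2.03). It ran from -3.34 without E2.75 null replicate 3 to -1.15 without E2.75 wild-type replicate 2, and was -0.94 without the 2 shallowest libraries (edgeR adjusted p = 0.706).

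*Fgfr1* (ENSMUSG00000031565, chromosome 8, 25518759 to 25575718, plus strand) encodes the FGF receptor present in all inner cells. It ran from 11.1 to 56.2 CPM in E2.5 wild-type embryos with a median of 26.9, and was 39.3 and 23.9 in het and 7.66, 42.6, 55.0 and 17.5 in null embryos. At E2.75 it was 59.3, 29.9 and 77.4 in wild-type, 33.0, 50.4, 42.1, 64.4 and 53.9 in het and 52.0, 42.4 and 47.1 in null embryos. The 3 E2.75 null values lay inside the ranges of both control genotypes. The log2 fold change was -0.22 against het (SE 0.42, edgeR adjusted p = 0.844) and 0.01 against wild-type (0.996) with the stages combined.

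*Fgfr2* (ENSMUSG00000030849, chromosome 7, 130162451 to 130266808, minus strand) encodes the receptor that becomes enriched in primitive endoderm precursors and trophectoderm. It ran from 13.7 to 54.8 CPM in E2.5 wild-type embryos with a median of 36.9, and was 59.9 and 43.6 in het and 48.1, 80.5, 31.6 and 2.81 in null embryos. At E2.75 it was 52.4, 37.7 and 97.1 in wild-type, 55.6, 55.5, 23.3, 65.3 and 56.4 in het and 74.1, 48.0 and 74.9 in null embryos. The genotypes overlapped at both stages, and 1 E2.5 null embryo stood far below the other 3. With the stages combined the log2 fold change was 0.00 against het (SE 0.44, 95% interval -0.90 to 0.90, edgeR adjusted p = 0.999) and 0.18 against wild-type (0.913).

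**Figure D3:**
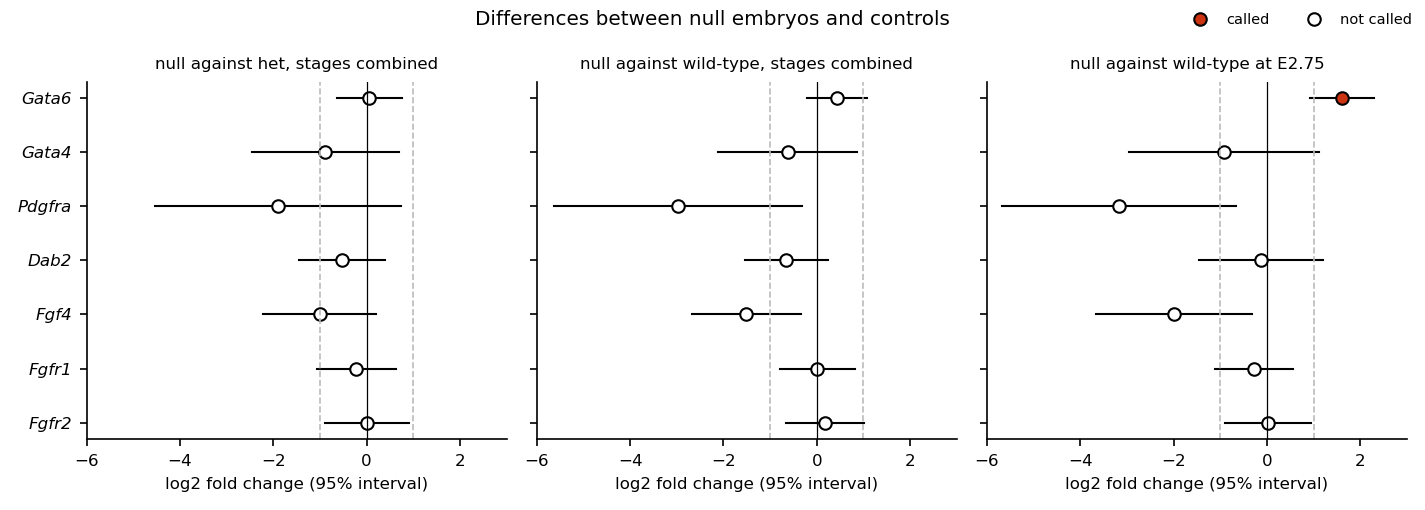
Log2 fold changes of the 7 genes tested (points) with 95% intervals (lines) for null against het and null against wild-type with the stages combined, and null against wild-type at E2.75. *Gata6* at E2.75 (1.6) is the only filled, called point, and the intervals of *Pdgfra* are the widest.

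With the stages combined, 0 of the 7 members tested were called in null against het, where 5.73% of 13415 genes were called, and 0 of 7 in null against wild-type, where 5.25% were called. At an unadjusted p under 0.05 the member counts were 0 and 2 (*Pdgfra* and *Fgf4*, both lower), beside 17.3% and 15.1% of all genes tested. The members' median log2 fold change was -0.52 against het and -0.63 against wild-type, beside medians of 0.02 and -0.02 over all genes tested. Het against wild-type called 0 of 7 members and 0 of all genes by edgeR, with 934 genes at an unadjusted p under 0.05, and DESeq2 called 37 genes higher and 28 lower, none of them members. At E2.5, null against wild-type called 0 of 7 members and 1.82% of 15904 genes.

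Of 30 other genes of the primitive endoderm, 16 passed the filter on low counts in the combined fit. Null against het called 1 of them, *Lrp2*, beside 5.73% of all genes tested, and the list's median log2 fold change was -0.37. *Lrp2*, which encodes the endocytic receptor megalin, was 12.2 ± 21.4 CPM in null, 105 ± 95.2 in het and 24.8 ± 19.1 in wild-type embryos. On the log2 scale *Lrp2* differed by -3.17 against het (SE 1.00, edgeR adjusted p = 0.0762) and -1.08 against wild-type, where it was not called. Null against wild-type called 0 of the 16, beside 5.25% of all genes, with a median of -0.39. At E2.75, null against wild-type called 1 of 16, beside 4.54% of all genes, and this was *Amn*, a partner of the cubilin receptor, lower (-2.74, edgeR adjusted p = 0.0956). Between the stages in wild-type embryos 3 of 20 were called, beside 7.38% of all genes. The laminin gene *Lamb1* (2.34) and the collagen-modifying gene *P4ha2* (1.27) rose and *Cited1* (-1.24) fell on the log2 scale.

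Among 22 other FGF ligand and receptor genes, 8 were tested in the combined fit. Null against het called 1 of the 8, beside 5.73% of all genes, and this was *Fgf1*, higher (1.89, SE 0.53, edgeR adjusted p = 0.0420). *Fgf1* was at 66.4 ± 34.4 CPM in null, 18.0 ± 11 in het and 35.1 ± 28.4 in wild-type embryos, and the list's median was -0.27. Null against wild-type called 1 of the 8, beside 5.25% of all genes, the receptor gene *Fgfr4*, higher (2.80, edgeR adjusted p = 0.0314), with a median of 0.51. Of 24 genes that carry the FGF signal from receptor to ERK, all tested, null against het called 1, beside 5.73% of all genes. This was *Ptpn11*, lower (-1.83, SE 0.40, edgeR adjusted p = 0.00854). *Ptpn11*, which encodes the phosphatase SHP2, was 22.8 ± 10.2 CPM in null, 80.7 ± 30.5 in het and 48.4 ± 33.5 in wild-type embryos. The medians of this list were -0.25 against het and 0.07 against wild-type, where 0 were called, beside 5.25% of all genes.

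Of 24 genes that respond to or restrain FGF and ERK signalling, 17 were tested. In null against het (median 0.32) and null against wild-type (-0.24) 0 were called, beside 5.73% and 5.25% of all genes. The most abundant of them, the Sprouty gene *Spry2*, was 144 ± 27.1 CPM in null, 116 ± 46.9 in het and 186 ± 109 in wild-type embryos, and *Ier2*, an immediate early gene, was 78.0 ± 26.7, 107 ± 39.1 and 106 ± 63.2. Between the stages, 2 of 20 were called in wild-type embryos, where *Spry2* fell (-1.76, edgeR adjusted p = 0.00433) and *Fos* rose (6.20), and 1 of 20 in null embryos, where *Etv5* rose (3.74), beside 7.38% and 3% of all genes. Among 18 regulators of the neighbouring lineages, 17 were tested, and null against het called 1, beside 5.73% of all genes. This was *Gata3*, a trophectoderm factor, lower (-2.12, SE 0.48, edgeR adjusted p = 0.00941), at 38.8 ± 16.5 CPM in null, 168 ± 106 in het and 35.8 ± 19.7 in wild-type embryos. The mean of *Gata3* was highest in het embryos, as was that of *Lrp2*. At E2.75, null against wild-type called 3 of 18 regulators, beside 4.54% of all genes, with *Klf5* higher (1.38), and *Tead4* (-1.42) and *Klf17* (-2.47) lower.

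**Figure D4:**
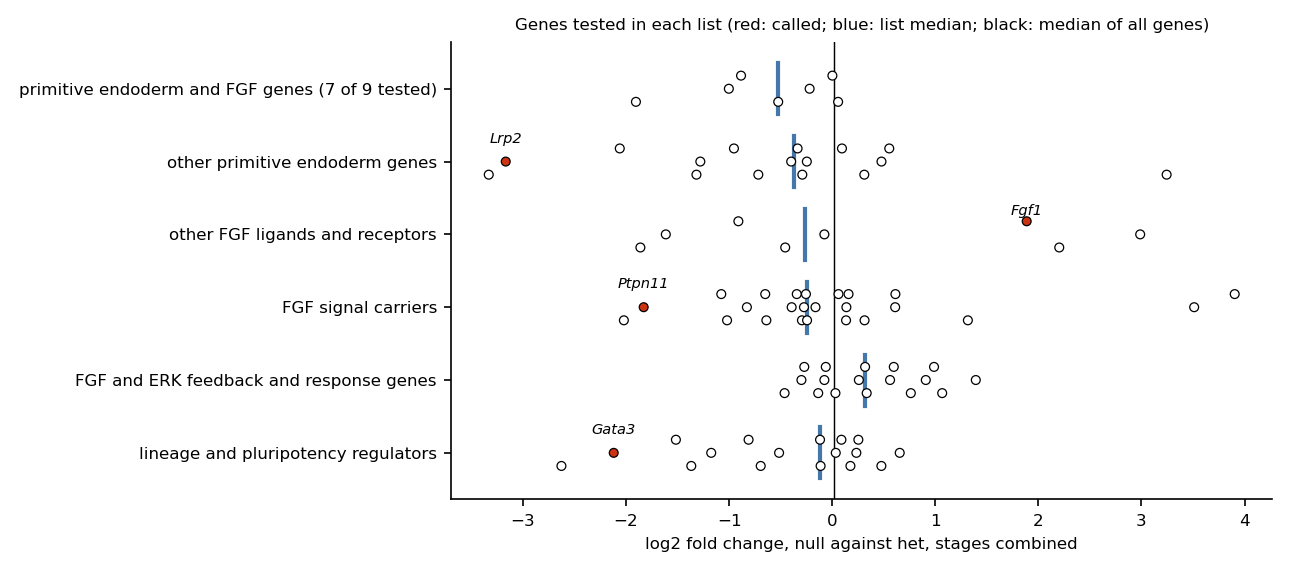
Log2 fold changes of the tested genes of each list (points) for null against het with both stages in, with the list's median (short blue lines) and the median of all genes (black line). Of the other lists, *Lrp2*, *Fgf1*, *Ptpn11* and *Gata3* are the filled, called points, and the list medians lie between -0.37 and 0.32.

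Each of the 9 genes had at least 1 POU6F1 peak within 5 kb, as did 77.1% of 20802 protein-coding genes. Peaks of each replicate had been called against 2 controls, which gives 4 lists. The peak names number the lists and name no control. Matched by number to a supplementary figure legend of the paper, the first list of a replicate was called against an IgG precipitation from *Pou6f1-mCherry* cells. The second was called against the mCherry precipitation from cells with *mCherry* alone. The labels give 1 IgG and 1 mCherry-only precipitation, so peaks found in both replicates may rest on the same control library. The lists held 82694 and 31348 peaks for replicate 1 and 24524 and 3630 for replicate 2. None of the 9 genes had a peak shared by all 4 lists, which 19% of protein-coding genes had, and none had any peak in the second list of replicate 2. In both first lists 7 of the 9 shared a peak (*Gata6*, *Gata4*, *Sox17*, *Pdgfra*, *Fgf4*, *Fgfr1* and *Fgfr2*), beside 56.5% of protein-coding genes. In both lists of replicate 1 all 9 did, beside 68.2%. At a -log10 q of 5 or more, *Gata6*, *Gata4* and *Fgfr1* remained in both first lists, beside 40.6% of protein-coding genes, and at 10 or more *Gata6* remained, beside 22.7%.

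**Figure D5:**
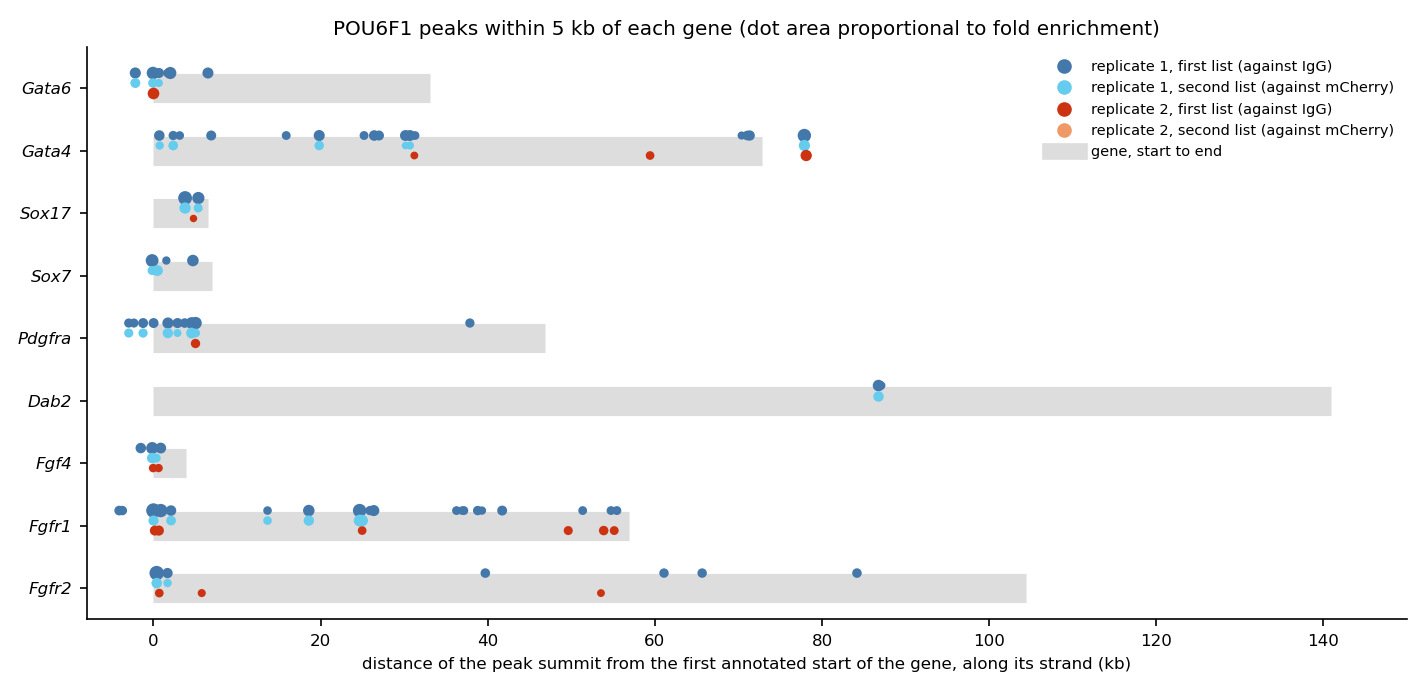
Peak summits around each of the 9 genes (dots, area proportional to fold enrichment over the control, colour by peak list), as distance in kb from the first annotated start along the gene's strand, with grey bars from gene start to end. Summits of replicate 1 are present at all 9 genes, those of the first list of replicate 2 at 7, and those of the second list of replicate 2 at 0.

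Of the regions found in 3 lists, those of *Gata6*, *Fgf4* and *Fgfr2* and 1 of the 2 of *Fgfr1* lay at gene starts. At *Gata6* the region chr18:11052316-11052930 covered the annotated start, with fold enrichments of 9.07 and 5.15 in the first and second lists of replicate 1 and 7.82 in the first list of replicate 2. Its summits lay 9 to 27 bp from the nearest transcript start in the GENCODE annotation, which is not the RefSeq gene start given above. A further 5 regions of this gene were found in replicate 1 alone. At *Fgfr1* the start region chr8:25518550-25519051 had a fold enrichment of up to 12.2, the highest at any member, and the other *Fgfr1* region in 3 lists, the intronic chr8:25543111-25543865, reached 10.4. At *Fgfr2* the start region chr7:130265700-130266572 reached 12.

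The region of *Gata4* in 3 lists, chr14:63193397-63194067, was not at its start but downstream of the gene, with a fold enrichment of up to 10.3. Its summits lay beyond 5 kb from the gene end, and only the edge of the region reached the 5 kb span. The place of *Gata4* in both first lists at a -log10 q of 5 or more rested on this region. Within 1 kb of a start, 6 members shared a peak in both first lists, beside 48.7% of protein-coding genes, and *Gata4* was not among them. In all, *Gata4* had 17 regions, and 16 of its peaks were in the first list of replicate 1, 6 in the second and 3 in the first list of replicate 2. *Pdgfra* had 10 regions, of which chr5:75156210-75156799, in an intron near an alternative start, was in 3 lists (fold enrichment 8.73, 4.40 and 5.02). *Sox17* had 2 regions, with up to 11-fold enrichment, and the one over its coding exon was in 3 lists and the one at an annotated start in both lists of replicate 1. *Sox7*, with 3 regions and up to 9.53-fold at its start, and *Dab2*, with 2 regions, had peaks in replicate 1 alone. The 2 SOX genes with 1 count each in these embryos and *Gata6*, which was abundant in all of them, each had a peak at an annotated start in the transfected stem cells. Such a peak was common: all 9 members had a peak within 1 kb of a start in both lists of replicate 1, beside 60.4% of protein-coding genes. At the 2 SOX genes the start peak was in replicate 1 alone.

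RefSeq promoter windows on GRCm38.p6 were matched for *Pdgfra*, *Dab2*, *Fgf4* and *Fgfr2*, and not for *Gata4*, *Gata6*, *Sox17*, *Sox7* and *Fgfr1*. The sequences are shown for the 2 matched members with a peak on the bases before a start. The 250 bases before the *Fgf4* start (chr7:144861136-144861385, plus strand, 71.2% G or C) lay under peaks of 3 lists, and those before the second *Dab2* start (chr15:6386498-6386747, plus strand, 60.0% G or C) under peaks of both lists of replicate 1. Capitals mark 21 bases centred on the summit of the first list of replicate 1.
Fgf4 promoter: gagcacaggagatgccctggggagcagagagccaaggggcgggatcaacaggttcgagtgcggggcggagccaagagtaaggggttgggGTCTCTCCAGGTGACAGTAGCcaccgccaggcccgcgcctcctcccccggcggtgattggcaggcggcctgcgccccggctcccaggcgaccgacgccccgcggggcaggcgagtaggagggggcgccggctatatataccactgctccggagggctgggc
Dab2 second start: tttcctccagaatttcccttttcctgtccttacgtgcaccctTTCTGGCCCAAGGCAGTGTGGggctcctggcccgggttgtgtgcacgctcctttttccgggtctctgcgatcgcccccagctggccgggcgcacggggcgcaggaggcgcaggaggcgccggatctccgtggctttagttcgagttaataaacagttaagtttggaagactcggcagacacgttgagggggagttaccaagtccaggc

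The summits at the *Fgf4* promoter had fold enrichments of 8.40 and 6.35 in replicate 1 and 4.24 in replicate 2, and that at the *Dab2* start 7.71. The windows of *Pdgfra* (chr5:75152001-75152250, 54.4% G or C), *Fgfr2* (chr7:130266809-130267058, 44.0%) and the first *Dab2* start (chr15:6299539-6299788, 36.8%) had no peak on them. Both strands of the windows were searched for the octamer ATGCAAAT bound by POU factors, its variant ATGCTAAT and the homeodomain core TAATTA, which 1.74%, 0.919% and 5.29% of 32851 RefSeq promoter windows hold. None of the members' windows held any of them. In the 300 bases around the 67 summits of the first list of replicate 1 at these genes, 1 held ATGCAAAT (1.49%, beside 0.753% of all 82694) and 4 held TAATTA (5.97%, beside 1.64%). The 17 summits of the first list of replicate 2 at these genes held 0 of either, beside 1.04% and 1.53% of all 24524.

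*Fgf4* is known for an enhancer in its last exon where SOX2 and OCT4 bind side by side. A SOX motif followed by the octamer variant, in capitals, was found once on the plus strand, at chr7:144864394-144864411, 3008 bp after the gene start in the untranslated part of the exon.
Fgf4 element: ctttgtttggATGCTAAT
No peak of the 4 lists lay on this element, and the nearest, in the first list of replicate 1, ended 2041 bp away. The peaks at *Fgf4* were thus at its promoter and first exons, and the embryos' *Fgf4* levels came from cells in which POU6F1 binding was not measured.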

How the data were processed

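For the RNA-seq, the authors used cutadapt 3.4 for trimming, STAR 2.7.8a for alignment to GRCm38 and HTSeq 0.11.4, strict intersection mode without strand, for counting. The deposited unit is the raw count per gene. For the ChIP-seq they aligned with Bowtie2 2.4.4 and called peaks per replicate with MACS2 2.2.7.1, and the deposited peak lists give a fold enrichment, a score and -log10 p and q values as that caller computed them. These lists carry no depth.

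In R 4.3.3, counts of 55487 genes were fitted by edgeR 4.0.16 (quasi-likelihood test, TMM, filterByExpr), with the 92 spike-ins and 5 summary lines left out. P-values were adjusted by Benjamini-Hochberg over all genes tested, and a gene counted as called where the adjusted p lay under 0.1 and the size of the log2 fold change over 1. One fit held the 3 genotypes with the stages combined, 1 fit held each stage, and 1 fit of all 6 conditions gave the changes with stage and the interaction. Levels are CPM after TMM normalization, from totals of 1690192 to 14015980. Intervals are those of the log2 fold change between groups, with its error estimated from the spread between embryos, and do not cover single embryos. A peak was assigned to a gene when it overlapped by at least 1 bp the span from 5 kb before the RefSeq start to 5 kb after the end. DESeq2 1.42.0, no filter, RLE and spike-in scaling, stage as a covariate, a replicate block and leaving out each embryo were tried as alternatives. Simulated data at the real means and library sizes recovered 46% of genes changed 4-fold in null against het with the stages combined (13415 genes) and 29.5% in null against wild-type at E2.75 (14442 genes), with 0 in the wrong direction. Genes changed 2-fold were recovered at 0% in both, where a 2-fold change lies on the threshold itself and many such genes must fail it. Only a small part of the genes was changed in each simulation, which makes the adjustment of p stricter. These shares are therefore not those that the real comparisons would recover.

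The 9 genes and the lists were chosen with earlier results of these data known. Every member is named. Of the other lists, the genes called in null against het with the stages combined are named, at most 5 a list by size of change, and where none was called the 2 with the highest mean. Genes called in the other comparisons were named after their values were seen.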

Additional observations from a re-analysis of the deposited data

Results flagged for a closer look

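Of 21 sets of values tested, 7 genes in each of the 3 conditions with 4 to 10 embryos, 4 held a value that stood apart from the rest of its condition by Dixon's criterion. Chance alone exceeds that criterion in about 5% of sets of normally distributed values, and CPM near 0 need not follow that rate. *Gata4* in E2.5 null replicate 3 was 61.6 CPM (203 counts), and the next value was 10.5. *Pdgfra* in the same embryo was 1.52 CPM, from 5 counts, and the other 3 null embryos had 0. With 3 values at 0 any value above 0 passes the criterion, so nothing is concluded from this set. *Fgf4* in E2.5 wild-type replicate 4 was 90.7 CPM (819 counts), and the next was 26.1. *Fgfr2* in E2.75 het replicate 3 was 23.3 CPM (282 counts), and the next was 55.5.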

How the results depend on the processing

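The number of members called moved in these cases. In null against het with the stages combined it was 4 under spike-in scaling against 0 (*Gata4* -2.04, *Dab2* -1.67, *Fgf4* -2.16 and *Fgfr1* -1.30, where the median of all genes was -1.08), and in null against het at E2.5 it was 1 under that scaling (*Gata6* -2.51). In null against wild-type with the stages combined it was 1 with DESeq2, with no filter on low counts and under spike-in scaling (*Fgf4*), 1 with stage as a covariate and 1 with the replicate block (*Pdgfra* -3.45 and -4.17), and 0 to 1 with each embryo left out. In null against wild-type at E2.75 it was 3 with DESeq2 and with no filter, 0 under spike-in scaling and 0 without the 2 shallowest libraries, against 1. Between the stages it was 3 in wild-type embryos under spike-in scaling (*Pdgfra*, *Fgfr1* and *Fgfr2* higher), 0 without the 2 shallowest libraries, 0 to 1 with each embryo left out, and 1 in null embryos under spike-in scaling (*Gata6* 1.71, where the median of all genes was 0.97). For the interaction it was 1 with DESeq2 and with no filter. The number of members with a peak in all 4 lists was 0, against 9 in at least 1 list, 7 in the first lists of both replicates and 1 with GENCODE gene bounds (*Fgfr2*, whose bounds there span 2961 kb).

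Signs turned for changes near 0, in log2: *Gata6* in null against het with no filter (-0.054), spike-in scaling (-0.96), the replicate block (-0.0560) and without the 2 shallowest libraries (-0.12); *Fgfr1* in null against wild-type with no filter (-0.082), spike-in scaling (-0.48), stage as a covariate (-0.018), only 2 genotypes (-0.020) and without the 2 shallowest libraries (-0.20). *Fgfr2* turned in null against het with no filter (-0.11), spike-in scaling (-1.07), only 2 genotypes (-0.027) and without the 2 shallowest libraries (-0.16), and in null against wild-type under spike-in scaling (-0.31) and the replicate block (-0.11). With each embryo left out the ranges were -0.067 to 0.41 for *Gata6*, -0.14 to 0.22 for *Fgfr1* and -0.17 to 0.17 for *Fgfr2* in null against het or wild-type as above, and -0.19 to 1.61 for *Fgf4* between the stages in wild-type embryos, the lowest without E2.75 wild-type replicate 2. The cause was not tested. Of the members' recomputed log2 fold changes, 665 kept their direction and side of the thresholds, 20 newly passed, 7 no longer passed and 45 changed sign. Embryos of different groups share a replicate number only: 17 pairs with the same number had correlations of their deviations from -0.106 to 0.0858, with 0 over 0.1, and the block changed no call of *Gata6* at E2.75 (1.68, edgeR adjusted p = 0.0551). The settings without the 2 shallowest libraries, with GENCODE bounds and with the first lists alone were chosen after seeing the data. Few counts limit what can be read for *Sox17*, *Sox7* and *Pdgfra*, which had 1, 1 and 1154 in all. Whether depth or little RNA lies behind this was not tested.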

Other observations

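The genes whose level followed each member most closely over the 23 embryos were taken from 11219 protein-coding genes by Pearson's r of log2 CPM, as a description. The embryos share genotype, stage and depth, which such a correlation also reads. For *Gata6* they were *Mrps5* (r = 0.858), *Mapre1* (0.822) and *Cdc14b* (0.790), and for *Gata4* *Lgmn* (0.819), *Stambp* (0.733) and *Zfp229* (0.711). For *Pdgfra* they were *Pdk3* (0.798), *Lars* (0.745) and *Cep250* (0.720), and for *Dab2* *Bet1* (0.759), *Ubxn4* (0.752) and *Arl5a* (0.715). *Fgf4* was followed less closely, by *Jmjd7* (0.681), *Tmem170* (0.680) and *Spint2* (0.674). For *Fgfr1* they were *Itga7* (0.848), *Uba1* (0.798) and *Clcn7* (0.798), and for *Fgfr2* *Dock4* (0.850), *Zfp280b* (0.813) and *Sept8* (0.811). No member was among the 3 closest genes of another member.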
